A study of Homo sapiens with 28 samples.

Results

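The genes described here are those whose response to androgen differed between cells with and without Senexin B after 24 h. RNA was measured in LNCaP cells, a human prostate cancer line that responds to androgen, kept in medium with charcoal-stripped serum, which holds little steroid hormone, before and during treatment. The 12 libraries of this experiment, of 28 in the series, form 4 groups of 3. One group received vehicle (0.1% DMSO), one Senexin B at 1 µM, one R1881 at 0.1 nM, and one R1881 and Senexin B together at those doses. The doses are those of the labels, and the text of the study gives another dose for Senexin B. The labels call the libraries of a group biological triplicates without saying how the cultures were separated, so p-values measure the spread between these libraries.

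R1881 is a synthetic androgen that binds the androgen receptor, a transcription factor that moves to the nucleus and binds DNA once it holds its ligand. Senexin B inhibits CDK8 and CDK19, alternative kinases of the module that attaches to Mediator, the complex that links transcription factors to RNA polymerase II. The module is known to act on transcription in both directions, depending on the gene.

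For each gene, the effect of R1881 was taken once without and once with Senexin B, and the interaction is the second minus the first on the log2 scale. A negative interaction is a lower androgen effect under Senexin B, whether a smaller rise or a larger fall. The same value is also the Senexin B effect with R1881 minus the Senexin B effect without it, so these effects use the same libraries and stand side by side as descriptions. A gene was called at a false discovery rate (FDR) under 0.01 in edgeR's quasi-likelihood test together with a difference over 1.5-fold, the limits of the study. Of 15948 genes tested, 92 were called, which is 0.577%. The interaction was higher for 39 of them (0.245% of genes tested) and lower for 53 (0.332%). The 92 genes were then sorted by whether R1881 alone raised them, lowered them, or was not called for them. The effect of R1881 alone is itself a part of the interaction, so this sorting is not independent of it.

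All 7 luminal epithelial markers were detected, and their summed level ran from 3438 to 4594 CPM (read counts relative to the size of each library) over the 12 libraries. Total counts ran from 10219027 to 33809270, and the deepest library, vehicle replicate 3, stood apart from the next at 13695572. The common coefficient of variation between libraries of a group was 2.72%. The 8 stromal markers summed to between 29.6 and 33 CPM over the vehicle libraries and between 9.99 and 12.1 CPM over those with both compounds, with PDGFRA and COL1A2 at 0 throughout. Their part in any result was not tested. Immune and endothelial markers summed to at most 1.59 and 3.08 CPM.

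R1881 without Senexin B raised 1565 genes (9.81% of those tested), and 45 of these had a called interaction, which is 2.88% of them. The androgen effect was lower under Senexin B for 27 and higher for 18. R1881 lowered 1465 genes (9.19%), and 12 of these (0.819%) were called, 4 of them higher and 8 lower. Among the 12918 genes not called for R1881 alone, 35 (0.271%) were called, 17 higher and 18 lower. For 11000 genes, 69% of all tested, the 95% interval of the interaction lay wholly within a 1.5-fold difference in either direction. That share was 57.7% for the genes raised by R1881 and 39.9% for the genes it lowered. For genes with few counts and a fitted interaction near 0 the interval can come out too narrow, so these shares are approximate.

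**Figure D1:**
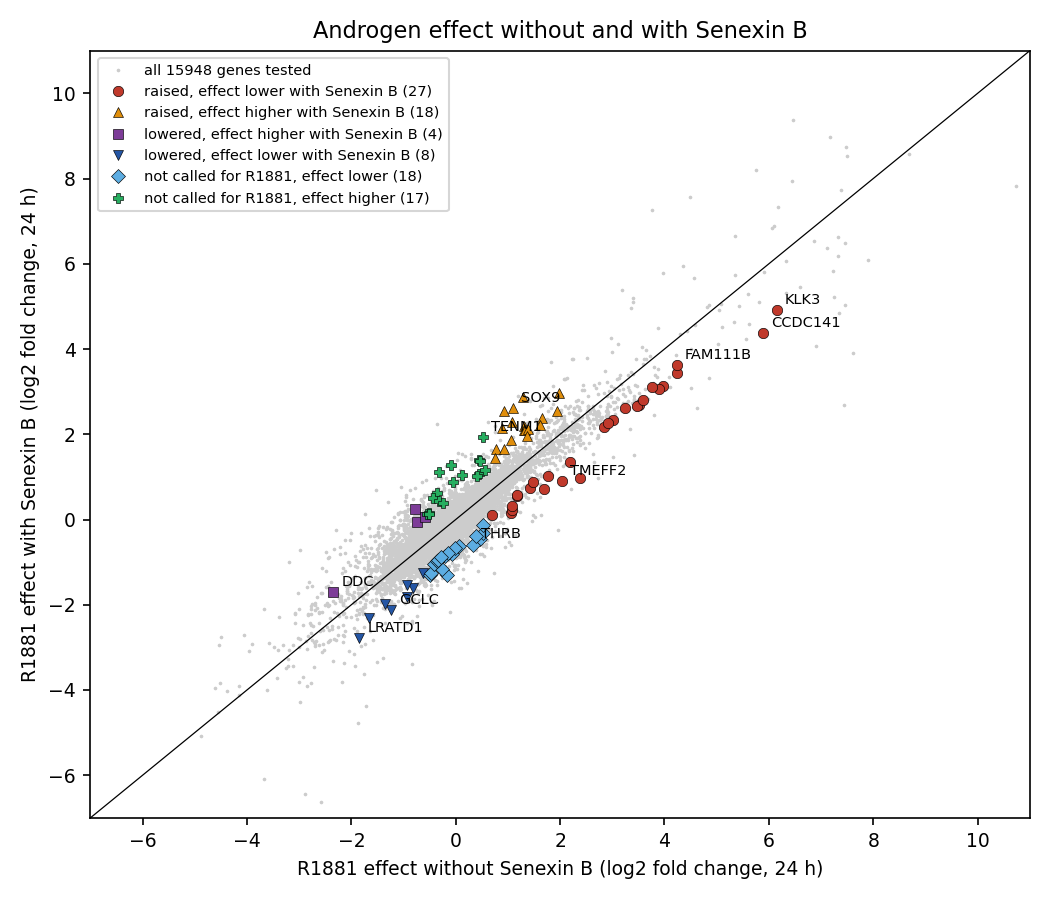
The effect of R1881 without Senexin B (horizontal axis, log2 fold change at 24 h) is plotted against its effect with Senexin B (vertical axis, same unit), with a grey point for each of 15948 genes, coloured symbols for the 92 called genes by class, and a line where both effects are equal. KLK3 and CCDC141, the called genes that R1881 raised most, lie below the line at 6.15 and 5.89 on the horizontal axis. Genes that were not called lie further right, CHRNA2 (7.49) and KLK2 (7.47) among them. The 18 androgen-raised genes with a higher effect lie above the line between 0.76 and 1.97 on the horizontal axis.

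The 27 androgen-raised genes with a lower effect under Senexin B had interactions from -1.51 to -0.59, with a median of -0.78. They reached that value in different ways. Senexin B was called higher without R1881 (2.02% of all genes tested) and not called with it for 18 of them, among them TMEFF2, ADRA2A and a group of DNA replication genes. It was called lower with R1881 (1.5% of all genes tested) and not called without it for 4, KLK3, CCDC141 and SPRY1 among them. An unnamed gene (ENSG00000287499) was called in both and in opposite directions, FAM111B was higher in both, and 3 genes were called in neither. R1881 still raised 22 of the 27 genes past both limits in the presence of Senexin B, a call made for 9.97% of all genes tested.

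KLK3 encodes prostate-specific antigen, the secreted protease used as a blood marker of prostate disease. It was counted at 1.13, 1.48 and 1.71 CPM with vehicle, 0.959, 0.912 and 0.991 CPM with Senexin B, 107, 115 and 109 CPM with R1881, and 29.6, 29.2 and 28.4 CPM with R1881 and Senexin B. Both groups with R1881 lay far above both groups without it, and the R1881 libraries with Senexin B all lay below those without. R1881 raised KLK3 70.9-fold without Senexin B and 30.2-fold with it, and the interaction was -1.23 ± 0.28 (SE, edgeR FDR 0.00624). Senexin B changed KLK3 by -1.92 ± 0.052 on the log2 scale with R1881 (edgeR FDR 4.02e-23) and by -0.69 ± 0.25 without it (edgeR FDR 0.0318), where the level was near 1 CPM. The call was lost when any 1 of 6 libraries was left out, which were vehicle replicates 1 and 2, all 3 Senexin B replicates and replicate 3 with both compounds, and the interaction lay between -1.45 and -1.16 over all 12 such fits.

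KLK2, a paralog of KLK3 that encodes a related kallikrein protease, was counted at 1.69, 0.917 and 1.14 CPM with vehicle, 0.664, 0.415 and 0.61 CPM with Senexin B, 221, 205 and 207 CPM with R1881, and 57.9, 49.1 and 48.4 CPM with R1881 and Senexin B. The order of the groups was that of KLK3, and no library with R1881 and Senexin B reached the lowest R1881 library. Its interaction of -0.98 ± 0.42 (SE, edgeR FDR 0.214) was not called, and its 95% interval ran from -1.83 to -0.12. CHRNA2, a nicotinic receptor subunit also strongly raised by androgen, was counted at 0.469, 0.565 and 0.37 CPM with vehicle, 0.148, 0.0829 and 0 CPM with Senexin B, 80.2, 82.1 and 76.8 CPM with R1881, and 34.1, 32.4 and 29 CPM with R1881 and Senexin B. The Senexin B libraries held at most 3 counts each for CHRNA2, so its fitted interaction of 1.03 ± 0.70 (SE, edgeR FDR 0.503, not called) depends on how counts near 0 are treated. Among the libraries with R1881, all those with Senexin B held less CHRNA2 than all those without it.

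KLK3 (ENSG00000142515.16) lies on chromosome 19, 50854915 to 50860764, plus strand, and KLK2 starts after it on the same strand (GENCODE 29 on GRCh38). The RefSeq start used below for KLK2 lies within the longer extent that GENCODE gives it. Their promoters are shown because KLK3 is the androgen-raised gene with a named role in the androgen response among the 27, and KLK2 is its nearest relative. The promoters come from RefSeq (GRCh38.p14), run here from 200 bases before the start of transcription to the base before it, and are printed in transcript direction. Capitals mark the letters NGAACAGCAAGTGCT, the proximal androgen-response element known from KLK3 with its first base left free, which holds all but the first letter of the half-site AGAACA.
KLK3 (chr19:50854715-50854914, plus strand): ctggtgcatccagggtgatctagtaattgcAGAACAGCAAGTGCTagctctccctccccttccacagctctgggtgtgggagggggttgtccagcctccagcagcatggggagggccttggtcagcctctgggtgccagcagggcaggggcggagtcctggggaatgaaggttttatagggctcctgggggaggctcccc
KLK2 (chr19:50873239-50873438, plus strand): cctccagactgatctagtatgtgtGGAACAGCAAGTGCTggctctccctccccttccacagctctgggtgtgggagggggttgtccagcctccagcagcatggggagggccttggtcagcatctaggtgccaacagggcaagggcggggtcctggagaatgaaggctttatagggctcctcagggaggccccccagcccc
The element starts 170 bases before the start of KLK3 and 176 before that of KLK2, and of 35116 promoters of 300 bases, searched on both strands, only 2 hold these letters. Over the 300 bases, from 250 before the start to 50 from it on, 251 aligned bases were identical (83.7%), with a shared run of 80. Reads could be shared between such close paralogs in counting, so the levels of KLK3 and KLK2 are uncertain to that extent. The half-site AGAACA was found in 5 of 23 androgen-raised genes with a lower effect that had a promoter in the table (21.7%), in 8.66% of the 10934 tested genes that had one, and in 14.8% of all promoters.

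CCDC141, which encodes a coiled-coil protein, was counted at 0.845, 0.706 and 0.654 CPM with vehicle, 1.18, 1.08 and 1.22 CPM with Senexin B, 39.1, 46.9 and 39.8 CPM with R1881, and 23.9, 25 and 23.9 CPM with R1881 and Senexin B. It was higher with Senexin B than with vehicle in the absence of R1881 and lower in its presence, without overlap on either side. The rise was 59.1-fold without Senexin B and 20.7-fold with it, with an interaction of -1.51 ± 0.31 (SE, edgeR FDR 0.00249). SPRY1, an inhibitor of receptor tyrosine kinase signalling, was counted at 4.79, 4.23 and 4.35 CPM with vehicle, 4.72, 5.31 and 5.26 CPM with Senexin B, 9.0, 10.3 and 8.56 CPM with R1881, and 5.17, 5.83 and 6.87 CPM with R1881 and Senexin B. Only the R1881 group stood above the others, and the interaction was -0.84 ± 0.19 (SE, edgeR FDR 0.00606). SPRY1 was named after its values were seen. DLG2, a scaffold protein of cell junctions and synapses, had an interaction of -0.98 ± 0.20 (SE, edgeR FDR 0.00196) without a Senexin B effect past both limits on either side.

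The other androgen-induced genes were mostly not called. Of a list of 44 genes known to be induced by androgen, 43 entries were tested, with HERC3 present under 2 identifiers. Only KLK3 was called lower and none was called higher, and the median interaction was 0.0082, beside 0.0011 over all genes tested. R1881 alone raised 35 entries, and all 35 were also called higher in the presence of Senexin B. For 26 of the 35, KRT19 among them, the 95% interval stayed within a 1.5-fold difference. FKBP5, a chaperone of steroid receptors, had an interaction of 0.11 ± 0.073 (SE) with an interval of -0.04 to 0.26. TMPRSS2, a membrane protease, had 0.13 ± 0.087 (SE, interval -0.052 to 0.30). In the presence of R1881, Senexin B was called lower for KLK3, KLK2, CHRNA2, MAF and KRT19 among these 35, and higher for HERC3 under both identifiers, by 0.62 on the log2 scale. KRT19, a keratin, fell alike on both sides, by 0.70 on the log2 scale without and with R1881, and had a fitted interaction of 0.0012. Its libraries without R1881 held at most 16 counts each. Its SE and interval come out too narrow there, so its interaction is poorly determined. ALDH1A3, a retinal dehydrogenase, had the highest interaction among entries with an FDR under 0.01, at 0.58 ± 0.10 (SE, edgeR FDR 0.000187), just under the fold limit.

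**Figure D2:**
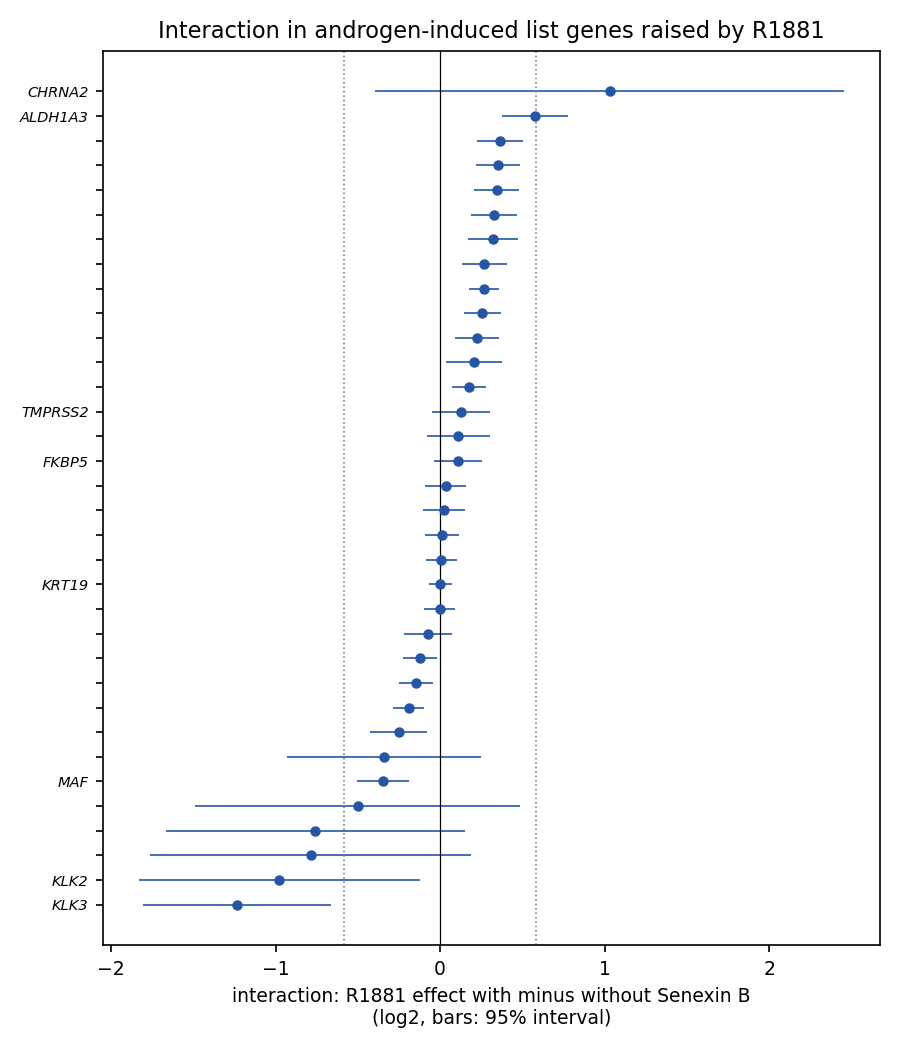
Points show the interaction (log2, R1881 effect with minus without Senexin B) of 34 entries of the androgen-induced list that R1881 raised, bars show 95% intervals and dotted lines the 1.5-fold limit, with 1 of the 35 entries left out for an SE above 1 and names given for entries described in the text. KLK3 has the lowest value at -1.23 with an interval clear of the limit, while FKBP5 and TMPRSS2 sit near 0 with intervals inside both lines. The bar of KRT19, which had few counts without R1881, is too narrow.

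TMEFF2, a transmembrane protein of prostate and brain, had the lowest FDR of the androgen-raised genes with a lower effect, level with ADRA2A and ENDOD1. It was counted at 22.3, 23.2 and 25.4 CPM with vehicle, 53.1, 58.3 and 57.3 CPM with Senexin B, 94, 105 and 99 CPM with R1881, and 101, 101 and 112 CPM with R1881 and Senexin B. Senexin B alone moved all 3 libraries above all vehicle libraries, whereas the ranges of the 2 groups with R1881 overlapped. The Senexin B effect was 1.22 ± 0.062 on the log2 scale without R1881 and 0.082 ± 0.049 with it, so that the rise with R1881 was 4.11-fold without and 1.87-fold with Senexin B. The interaction was -1.13 ± 0.08 (SE, edgeR FDR 2.05e-11). ADRA2A, the alpha-2A adrenergic receptor, was counted at 116, 109 and 115 CPM with vehicle, 246, 256 and 247 CPM with Senexin B, 229, 261 and 218 CPM with R1881, and 287, 279 and 264 CPM with R1881 and Senexin B. Senexin B alone brought it to the level seen with R1881 alone, and R1881 was no longer called once Senexin B was present (1.06 against 0.15 on the log2 scale). The interaction of ADRA2A was -0.91 ± 0.064 (SE, edgeR FDR 2.05e-11).

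In the same class, 11 genes of DNA replication and cell division were grouped after their values were seen. They are RRM2 (ribonucleotide reductase, which makes deoxynucleotides), CDC6, TICRR and CLSPN (licensing, firing and checkpoint control of origins), UHRF1 (maintenance of DNA methylation), DTL (a ubiquitin ligase adaptor of S phase), TOP2A (a topoisomerase), NCAPG (a condensin subunit), KIFC1 (a mitotic kinesin), ZNF367 (a zinc finger factor) and FAM111B (a nuclear protease). R1881 alone raised all 11, by 2.83 to 4.25 on the log2 scale. Senexin B alone was called higher for all 11, by 0.71 to 1.36, and with R1881 present it was called for FAM111B only, with values from -0.15 to 0.75. In a bulk sample, more cells of a kind and more RNA per cell cannot be told apart, here the cells that are in cycle.

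CDC6 was counted at 5.07, 5.72 and 5.46 CPM with vehicle, 8.93, 13.8 and 11.5 CPM with Senexin B, 80.2, 84.6 and 78.8 CPM with R1881, and 87.2, 101 and 95.3 CPM with R1881 and Senexin B. Each step from vehicle to Senexin B and on to R1881 separated the libraries without overlap, and so did the step to both compounds. R1881 raised CDC6 14.9-fold without and 8.32-fold with Senexin B, an interaction of -0.84 ± 0.14 (SE, edgeR FDR 0.000159). RRM2 was counted at 6.67, 9.24 and 8.02 CPM with vehicle, 13, 15.1 and 11.6 CPM with Senexin B, 116, 136 and 129 CPM with R1881, and 107, 125 and 113 CPM with R1881 and Senexin B. Its libraries overlapped between the 2 groups with R1881 and not between the 2 without. The interaction of RRM2 was -0.85 ± 0.13 (SE, edgeR FDR 7.63e-05) and that of TOP2A -0.66 ± 0.11 (SE, edgeR FDR 0.000288). FAM111B was counted at 7.51, 7.2 and 7.74 CPM with vehicle, 18.3, 18.6 and 21.2 CPM with Senexin B, 150.2, 139 and 138 CPM with R1881, and 234, 245 and 238 CPM with R1881 and Senexin B, and all 4 groups were separate. Senexin B raised it on both sides, 2.56-fold without R1881 and 1.68-fold with it.

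For 7 of these 11 genes the sign depends on the scale. As a difference of differences in CPM in place of log2, 84 of the 92 genes kept the sign of the interaction, and the 8 that did not were all androgen-raised genes with a lower log2 effect. They are CDC6, UHRF1, TICRR, ZNF367, DTL, CLSPN, FAM111B and an unnamed gene (ENSG00000258314). Only 4 of the 8, which are TICRR, ZNF367, DTL and FAM111B, lay over 2 SE from 0 in CPM. RRM2, NCAPG, KIFC1 and TOP2A kept their sign. FAM111B gained 84.8 ± 5.31 CPM more (SE) from R1881 in the presence of Senexin B than without it, while its log2 interaction was -0.61. For CDC6 the difference was 7.17 ± 4.53 CPM (SE). KLK3 had the same sign on both scales, at -80.8 ± 2.44 CPM (SE).

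Promoter stretches of 4 of these genes are shown because all 4 hold a form of the site bound by E2F, the family of factors that drives S-phase genes. They come from RefSeq (GRCh38.p14), in transcript direction, from 100 bases before the start to 29 bases after it. Capitals mark TTTGGCGC or TTTCCCGC, the second printed as its reverse complement where it lies on the other strand.
CDC6 (chr17:40287779-40287908, plus strand): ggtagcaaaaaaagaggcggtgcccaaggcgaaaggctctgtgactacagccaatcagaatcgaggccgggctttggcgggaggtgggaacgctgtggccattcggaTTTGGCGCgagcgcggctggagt
DTL (chr1:212035648-212035777, plus strand): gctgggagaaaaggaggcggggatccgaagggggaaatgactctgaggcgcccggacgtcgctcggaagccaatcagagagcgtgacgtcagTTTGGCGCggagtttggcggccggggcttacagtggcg
UHRF1 (chr19:4909401-4909530, plus strand): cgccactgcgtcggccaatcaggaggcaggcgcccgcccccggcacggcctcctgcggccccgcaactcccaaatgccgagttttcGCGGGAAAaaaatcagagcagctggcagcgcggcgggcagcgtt
CLSPN (chr1:35769949-35770078, minus strand): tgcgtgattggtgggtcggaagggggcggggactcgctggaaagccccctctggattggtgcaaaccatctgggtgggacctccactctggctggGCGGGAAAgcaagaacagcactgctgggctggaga
Of the 11 genes, 10 had a promoter in the table, and 5 of the 10 held at least 1 of TTTCCCGC, TTTGGCGC, TTTCGCGC and TTTGCCGC on either strand, the fifth being ZNF367. Of the 10934 tested genes with a promoter 5.37% did, and of all 35116 promoters of 300 bases 3.31%. The 4 forms share letters but no form contains another. A match is a description of the letters and not of binding, and the genes and forms were chosen with their values known.

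The cell-cycle list was written from general knowledge with earlier results of these data known, and not from the call. Of 40 genes tested, 3 were called lower (RRM2, CDC6 and TOP2A, all also in the group of 11 above) and none higher. Over all genes tested, 0.332% were called lower and 0.245% higher. The interaction was negative for 35 of the 40, with a median of -0.22, beside 7929 negative values among the 15948 genes tested. R1881 alone raised 39 of the 40, and of all 1565 genes it raised, 883 were negative with a median of -0.049. The effect of R1881 alone enters the interaction with a minus sign, so sorting by it favours negative values among raised genes. By the average R1881 effect over both inhibitor conditions, 783 of 1651 raised genes were negative, with a median of 0.016. Senexin B without R1881 had a median effect of 0.37 on the log2 scale and was called higher for 7 genes of the list (2.02% of all genes tested). With R1881 the median was 0.13 and 1 gene was called higher (1.61% of all genes tested), CDK1, the kinase of mitotic entry. MCM2, a subunit of the replicative helicase, had an interaction of -0.42 ± 0.077 (SE, edgeR FDR 0.00069) and CENPF, a kinetochore protein, of -0.52 ± 0.10 (SE, edgeR FDR 0.000585), both under the fold limit. PCNA, the sliding clamp, had 0.033 ± 0.07 (SE, edgeR FDR 0.884). All these values are on the log2 scale, and the sign in CPM can differ, as in the group of 11. MCM2 averaged 42.7 CPM with vehicle, 74.3 CPM with Senexin B, 139 CPM with R1881 and 182 CPM with both compounds. Senexin B thus added more CPM of MCM2 with R1881 than without it, whereas for CENPF it added fewer. The signs in CPM over the whole list are not given here.

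Senexin B enlarged the rise with R1881 for 18 genes, with interactions from 0.59 to 1.62 and a median of 0.79. Without R1881 Senexin B had a median effect of -0.32 on these genes, and with R1881 of 0.63. It was called higher with R1881 (1.61% of all genes tested) and not without it for 9, lower without R1881 (1.77%) and not with it for 2, and in both, with opposite signs, for CNTNAP3 and MED12L. SOX9, a transcription factor of prostate epithelial development, was counted at 3.47, 2.61 and 2.93 CPM with vehicle, 2.73, 2.41 and 2.13 CPM with Senexin B, 7.35, 6.62 and 5.01 CPM with R1881, and 17.8, 12.8 and 14.2 CPM with R1881 and Senexin B. The libraries with both compounds lay above all others, and those with vehicle and Senexin B overlapped. R1881 raised SOX9 2.13-fold without Senexin B and 6.15-fold with it, with an interaction of 1.53 ± 0.25 (SE, edgeR FDR 9.34e-05). It lies on chromosome 17, 72121020 to 72126420, plus strand (GENCODE 29, GRCh38).

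PRRT2, a presynaptic membrane protein, had the largest interaction of the 92 genes at 1.62 ± 0.27 (SE, edgeR FDR 0.000149). It was counted at 2.53, 2.12 and 1.68 CPM with vehicle, 1.48, 1.16 and 1.45 CPM with Senexin B, 3.67, 3.97 and 3.54 CPM with R1881, and 8.13, 7.93 and 8.04 CPM with R1881 and Senexin B. No library with both compounds was under 7.93 CPM and no other library was above 3.97 CPM. CNTNAP3, a cell adhesion protein of the neurexin family, was counted at 4.69, 4.3 and 4.07 CPM with vehicle, 2.58, 2.07 and 3.58 CPM with Senexin B, 10.9, 10.6 and 9.51 CPM with R1881, and 21, 20.1 and 19.99 CPM with R1881 and Senexin B. Its 4 groups were separate, with Senexin B alone lowest, and the interaction was 1.60 ± 0.19 (SE, edgeR FDR 7.65e-07). CNTNAP3 belongs to a family of near-identical copies, so its counts are uncertain.

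MED12L, a paralog of the Mediator kinase module subunit MED12, was counted at 6.95, 5.36 and 5.09 CPM with vehicle, 3.76, 3.73 and 3.43 CPM with Senexin B, 13.7, 9.53 and 11.8 CPM with R1881, and 19.8, 15.7 and 18.1 CPM with R1881 and Senexin B. Senexin B went with lower levels in the absence of R1881 and higher levels in its presence, without overlap on either side. The interaction of MED12L was 1.22 ± 0.20 (SE, edgeR FDR 0.000113). MED12L overlaps other annotated genes on both strands, and the use of strand in counting is not given in the sources used here. None of the other 6 tested members of the kinase module was called, and the targets of the drug had interactions of -0.34 ± 0.10 (SE, edgeR FDR 0.036) for CDK8 and -0.041 ± 0.045 (SE, edgeR FDR 0.723) for CDK19. ASRGL1, an asparaginase, rose 3.92-fold with R1881 alone and 7.84-fold in the presence of Senexin B, with an interaction of 1.00 ± 0.21 (SE, edgeR FDR 0.00367).

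Some of the 92 genes are neighbours. CA5BP1, a pseudogene of the mitochondrial carbonic anhydrase CA5B, overlaps CA5B on chromosome X by 14894 bases, and both were called with a higher interaction. CA5BP1 was counted at 6.2, 8.4 and 8.19 CPM with vehicle, 7.23, 8.29 and 8.38 CPM with Senexin B, 15.4, 13.1 and 14.9 CPM with R1881, and 34, 34.8 and 36.2 CPM with R1881 and Senexin B, and its libraries with both compounds lay above all others. Its interaction was 1.26 ± 0.14 (SE, edgeR FDR 1.70e-07) and that of CA5B 0.92 ± 0.17 (SE, edgeR FDR 0.000473), and reads could be shared between them. AP1S2, an adaptor protein subunit 37397 bases from CA5B, was called as well at 0.88. HMGXB3 and SLC26A2, a sulfate transporter, lie 6591 bases apart on chromosome 5 with interactions of 0.60 and 0.77. NR4A1, an orphan nuclear receptor, and ATG101, an autophagy protein, lie 9739 bases apart on chromosome 12 with 0.79 and 0.61. CDC6 and TOP2A, both with a lower interaction, lie 83859 bases apart on chromosome 17. DTX4 and FAM111B lie 44020 bases apart on chromosome 11 with interactions of opposite sign, 0.75 and -0.61. LPXN, a focal adhesion adaptor plotted by library with SOX9, rose 3.13-fold with R1881 and 5.19-fold with R1881 in the presence of Senexin B. Apart from CA5BP1, CDC6 and TOP2A, the genes of this paragraph were named after their values were seen.

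**Figure D3:**
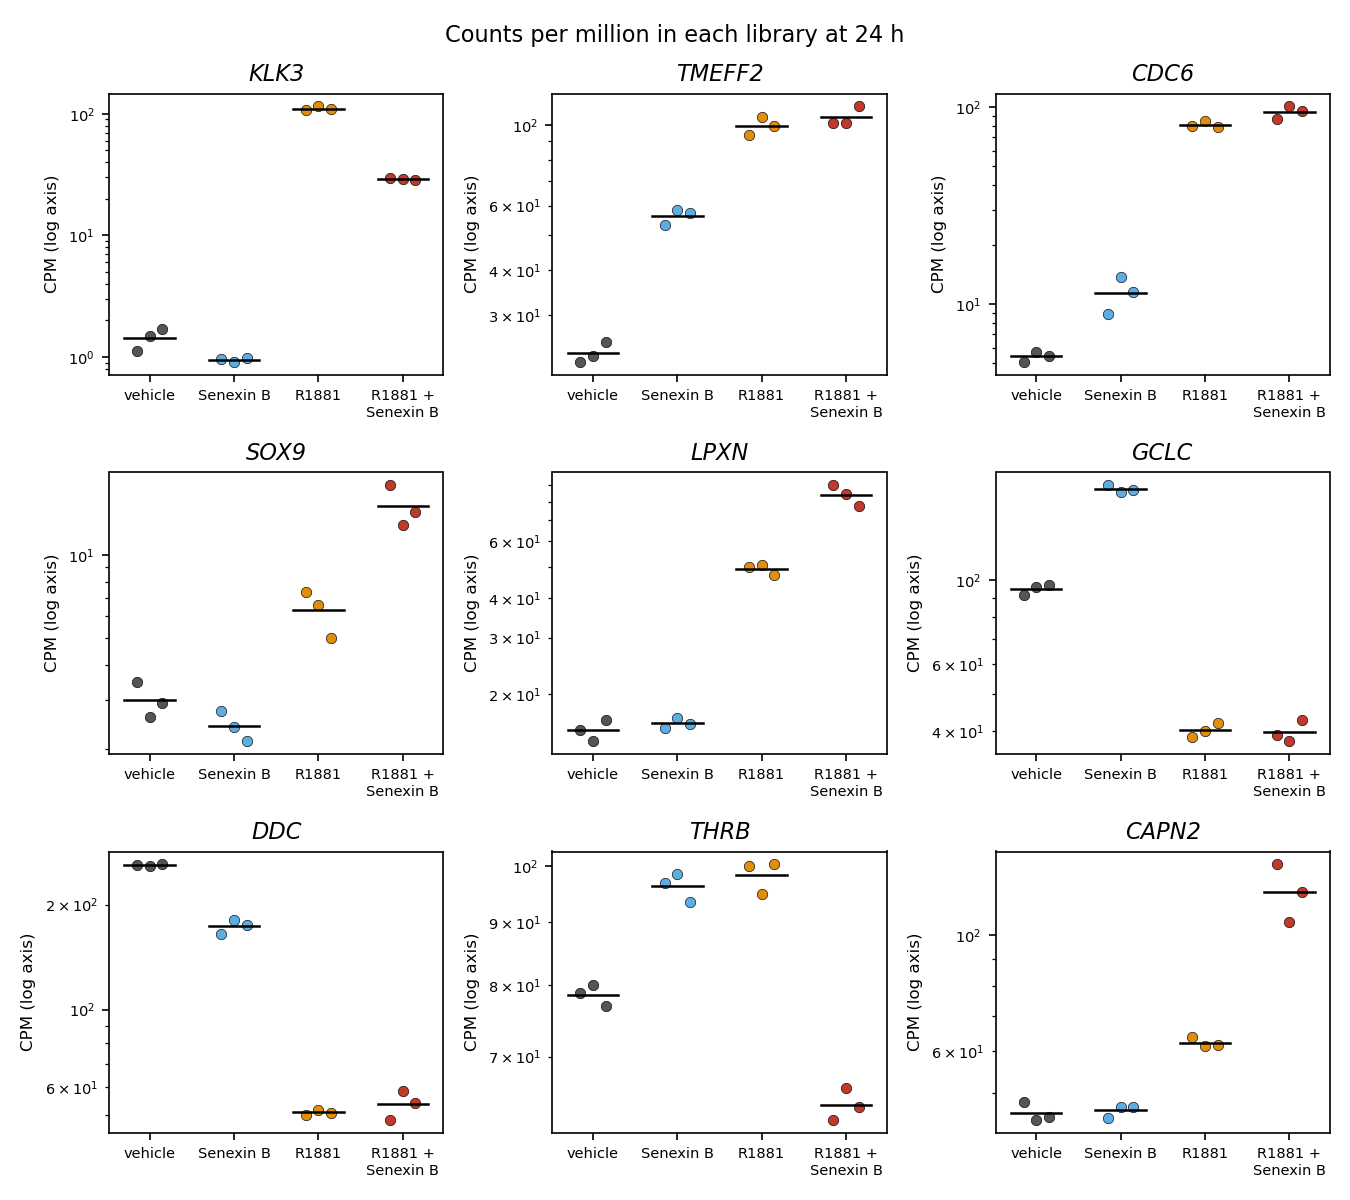
CPM on a log axis is shown for 9 genes in each of the 12 libraries at 24 h (points) with the group mean (line), by treatment. KLK3 is lower with Senexin B among R1881 libraries, TMEFF2, CDC6 and GCLC are higher with Senexin B among libraries without R1881, and SOX9, LPXN and CAPN2 are higher with Senexin B among libraries with R1881.

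R1881 lowered 8 genes further in the presence of Senexin B, with interactions from -0.94 to -0.60. Their levels with both compounds were close to those with R1881 alone (median Senexin B effect -0.023 on the log2 scale) and differed more without R1881 (median 0.60). GCLC, the catalytic subunit of the enzyme that starts glutathione synthesis, was counted at 91.3, 95.8 and 97.3 CPM with vehicle, 178, 171 and 173 CPM with Senexin B, 38.7, 40.1 and 42.1 CPM with R1881, and 39, 37.6 and 42.7 CPM with R1881 and Senexin B. Senexin B alone stood above every other library, vehicle came next, and the 2 groups with R1881 overlapped. The fall with R1881 was -1.24 on the log2 scale without Senexin B and -2.13 with it, an interaction of -0.88 ± 0.071 (SE, edgeR FDR 2.41e-10). GCLC lies on chromosome 6, 53497341 to 53616970, minus strand (GENCODE 29, GRCh38).

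LRATD1 had the largest interaction of these 8 at -0.94 ± 0.13 (SE, edgeR FDR 1.04e-05) and was counted at 33, 32.5 and 30.2 CPM with vehicle, 62.7, 69.3 and 65.8 CPM with Senexin B, 9.09, 9.26 and 7.87 CPM with R1881, and 9.99, 10.2 and 8.43 CPM with R1881 and Senexin B. The pattern was that of GCLC, with the groups without R1881 apart and those with R1881 overlapping. EIF1B, a translation initiation factor, had -0.79 ± 0.077 (SE, edgeR FDR 1.29e-08), and Senexin B was called higher only without R1881 for GCLC, LRATD1, EIF1B and VGLL4. ADD3, a membrane skeleton protein, had -0.63 ± 0.079 (SE, edgeR FDR 2.19e-06), and SLC6A19, a neutral amino acid transporter, -0.87 ± 0.19 (SE, edgeR FDR 0.00548). VGLL4 was named after its values were seen.

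Only 4 genes that R1881 lowered had a higher androgen effect under Senexin B, which is a smaller fall. The number was 7 without vehicle replicate 3 and 7 without replicate 2 of the group with both compounds. DDC, the decarboxylase that makes dopamine and serotonin, was counted at 260.2, 257 and 261 CPM with vehicle, 164, 181 and 175 CPM with Senexin B, 49.96, 51.7 and 50.7 CPM with R1881, and 48.3, 58.3 and 53.9 CPM with R1881 and Senexin B. Senexin B lowered all 3 libraries without R1881 below the vehicle libraries, by 0.58 on the log2 scale, which is under the fold limit, and the 2 groups with R1881 overlapped. The fall with R1881 was -2.35 without and -1.70 with Senexin B, and the interaction was 0.66 ± 0.07 (SE, edgeR FDR 8.89e-08). HMGN2P46, a pseudogene overlapping other annotated genes, was counted at 24, 22.2 and 23.8 CPM with vehicle, 5.9, 4.64 and 3.35 CPM with Senexin B, 14.9, 11.3 and 14.8 CPM with R1881, and 5.34, 5.92 and 5.23 CPM with R1881 and Senexin B. It was lower with Senexin B on both sides and had an interaction of 1.01 ± 0.20 (SE, edgeR FDR 0.00128). RILP, a lysosomal trafficking protein, had 0.68 ± 0.14 (SE, edgeR FDR 0.00234), and DNAJB4, a heat shock protein 40 co-chaperone, 0.66 ± 0.11 (SE, edgeR FDR 0.000197). R1881 was no longer called in the presence of Senexin B for HMGN2P46, RILP and DNAJB4.

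The UGT2B enzymes, which conjugate androgens to glucuronic acid, are known to be lowered by androgen. R1881 alone lowered 6 of the 7 tested, and none had a called interaction. UGT2B15 was counted at 485, 492 and 488 CPM with vehicle, 149.6, 151 and 155 CPM with Senexin B, 73.8, 74.3 and 77.8 CPM with R1881, and 29.5, 43.3 and 33.4 CPM with R1881 and Senexin B. Every group was separate from the next, and the interaction of 0.58 ± 0.086 (SE, edgeR FDR 2.78e-05) fell just under the fold limit. UGT2B17 had 0.49 ± 0.065 (SE, edgeR FDR 5.97e-06).

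For the 18 genes that R1881 alone was not called for and whose interaction was lower, R1881 was called lower in the presence of Senexin B (8.9% of all genes tested) for 14. THRB, the thyroid hormone receptor beta, was counted at 78.9, 79.9 and 77 CPM with vehicle, 96.8, 98.5 and 93.5 CPM with Senexin B, 99.9, 94.8 and 100.3 CPM with R1881, and 62.2, 66 and 63.7 CPM with R1881 and Senexin B. Either compound alone raised it above the vehicle libraries, the 2 single treatments overlapped, and together they brought all 3 libraries below vehicle. The Senexin B effect was 0.30 ± 0.04 on the log2 scale without R1881 and -0.62 ± 0.044 with it, and the interaction was -0.92 ± 0.06 (SE, edgeR FDR 7.82e-12). THRB lies on chromosome 3, 24117153 to 24495756, minus strand (GENCODE 29, GRCh38). Senexin B was called lower only with R1881 for THRB, for JAG1, a Notch ligand (-0.76 ± 0.073 (SE, edgeR FDR 9.25e-09)), and for SOX4, a transcription factor (-0.64 ± 0.048 (SE, edgeR FDR 4.39e-11)), of which the last 2 were named after their values were seen.

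A further 9 of the 18 were called higher with Senexin B only in the absence of R1881. CILK1, a kinase of cilia, was counted at 74.9, 71.7 and 69.2 CPM with vehicle, 154, 145 and 155 CPM with Senexin B, 51.8, 49.8 and 53.3 CPM with R1881, and 61.4, 64 and 65.6 CPM with R1881 and Senexin B. Senexin B alone stood above all other libraries, and the remaining groups were separate in the order vehicle, both compounds, R1881. Its interaction was -0.78 ± 0.066 (SE, edgeR FDR 7.81e-10). DKC1, the pseudouridine synthase of box H/ACA particles and the called gene of the MYC-target and ribosome list, was counted at 164, 175 and 170.0 CPM with vehicle, 305, 304 and 314 CPM with Senexin B, 178, 181 and 173 CPM with R1881, and 202, 204 and 190.2 CPM with R1881 and Senexin B. Senexin B alone stood between 304 and 314 CPM and no other library was above 204 CPM, with an interaction of -0.69 ± 0.05 (SE, edgeR FDR 3.10e-11). C18orf54 had -0.92 ± 0.20 (SE, edgeR FDR 0.00398), and the non-coding genes LINC00638 and CALCRL-AS1 had -1.12 ± 0.24 (SE, edgeR FDR 0.00404) and -0.83 ± 0.18 (SE, edgeR FDR 0.00449). CEMIP2, a hyaluronan-binding membrane protein, had Senexin B effects of 0.35 without and -0.44 with R1881, both under the fold limit, and an interaction of -0.79 ± 0.078 (SE, edgeR FDR 1.43e-08).

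The 17 genes that R1881 alone was not called for and whose interaction was higher included 11 for which R1881 was called higher in the presence of Senexin B. That call was made for 9.97% of all genes tested. CAPN2, the large subunit of a calcium-dependent protease, was counted at 48, 44.4 and 44.9 CPM with vehicle, 44.9, 46.9 and 47 CPM with Senexin B, 63.8, 61.4 and 61.6 CPM with R1881, and 137, 106 and 121 CPM with R1881 and Senexin B. The libraries without R1881 overlapped, R1881 alone was moderately higher, and both compounds together were highest without overlap. The interaction was 0.94 ± 0.089 (SE, edgeR FDR 8.78e-09), and CAPN2 lies on chromosome 1, 223701593 to 223776018, plus strand (GENCODE 29, GRCh38). ALOXE3, an epidermal lipoxygenase, was counted at 3.47, 2.61 and 2.7 CPM with vehicle, 3.1, 3.73 and 2.67 CPM with Senexin B, 2.57, 2.12 and 2.16 CPM with R1881, and 6.27, 6.21 and 7.96 CPM with R1881 and Senexin B. Only the libraries with both compounds stood above the others, with an interaction of 1.43 ± 0.26 (SE, edgeR FDR 0.000468). TENM1, a teneurin cell adhesion protein, had 1.42 ± 0.20 (SE, edgeR FDR 1.23e-05), KHDRBS3, an RNA-binding splicing regulator, 0.98 ± 0.15 (SE, edgeR FDR 5.43e-05), and FAM20C, a kinase of secreted proteins, 0.94 ± 0.18 (SE, edgeR FDR 0.00104). MARCHF3, a membrane ubiquitin ligase, was counted at 3.66, 2.19 and 2.82 CPM with vehicle, 1.48, 1.08 and 0.838 CPM with Senexin B, 2.48, 2.73 and 2.77 CPM with R1881, and 2.71, 2.96 and 2.65 CPM with R1881 and Senexin B. It was low only with Senexin B alone, and its interaction of 1.36 ± 0.32 (SE, edgeR FDR 0.00962) was the last inside the FDR limit.

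Senexin B was called in either direction without R1881 for 3.79% of all genes tested. Over all 53 genes with a lower interaction, it was called higher only without R1881 for 31, lower only with R1881 for 8, higher on both sides for 2, in opposite directions for 1, and on neither side for 11. Over the 39 with a higher interaction it was called higher only with R1881 for 16, lower only without R1881 for 8, in opposite directions for 2, higher on both sides for 2, lower on both sides for 1, and on neither side for 10. The most frequent form of a lower interaction was thus a Senexin B rise in androgen-deprived cells, and that of a higher one a Senexin B rise in androgen-treated cells. A call on one side and not on the other follows partly from how the genes were chosen, since the interaction is the difference of both.

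**Figure D4:**
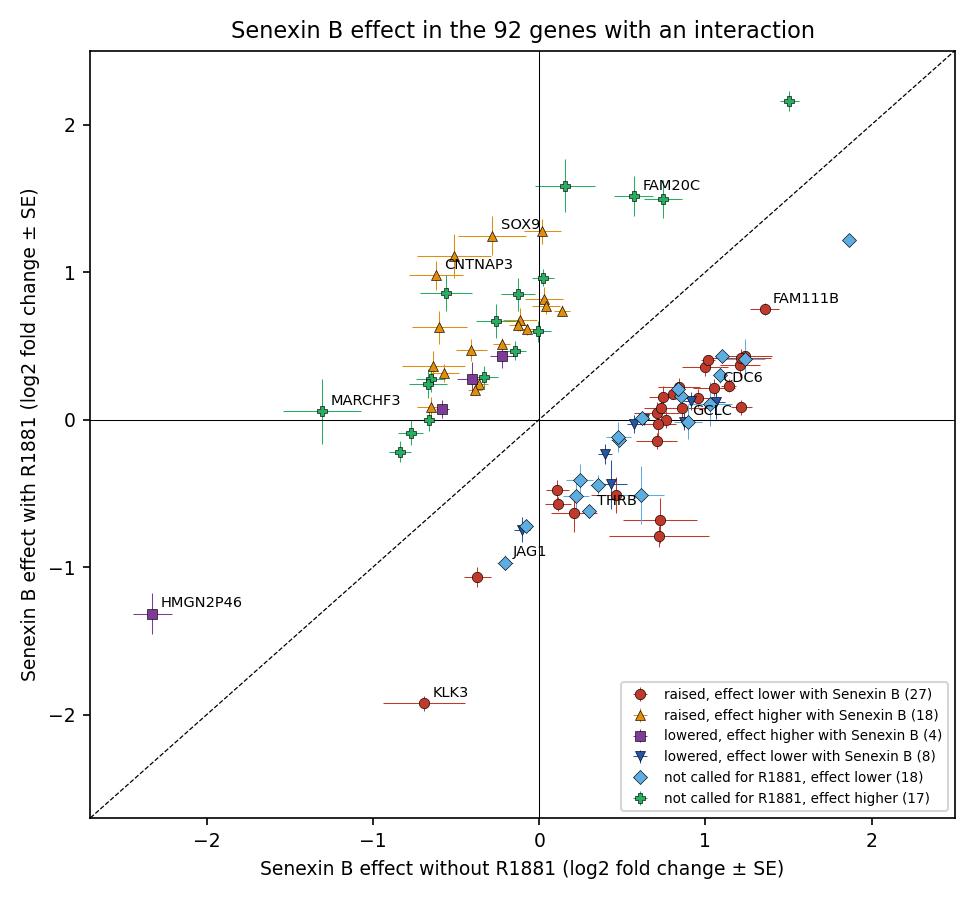
The Senexin B effect without R1881 (horizontal axis) is plotted against that with R1881 (vertical axis), both as log2 fold change at 24 h with SE bars, for the 92 genes by class, with a dashed line where both are equal. Many genes with a lower interaction lie to the right at a height near 0, KLK3 lies at -0.69 and -1.92, and SOX9 at -0.28 and 1.25.

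The sorting depends on which androgen effect is used. By the average R1881 effect over both inhibitor conditions (20.8% of genes tested called, 10.4% higher and 10.4% lower), 26 androgen-raised genes had a lower and 25 a higher interaction, and 15 androgen-lowered genes had a lower and 1, DDC, a higher one. Of the 35 genes not called for R1881 alone, 7 joined the raised genes with a higher interaction and 7 the lowered genes with a lower one. At the edge of the call, PREX2 had an interaction of -1.45 with an FDR of 0.0106 in edgeR's test just outside the limit, beside 1.36 and 0.00962 for MARCHF3 inside it. MPC2 at 0.59 was just inside the fold limit and REPS2 at 0.58 just outside.

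Among the other gene lists, each written from general knowledge with earlier results of these data known, few genes were called. For MYC targets and ribosome biogenesis, 1 of 28 was called lower (DKC1), 22 were negative and the median was -0.10. Of 16 prostate transcription factors 1 was called higher (SOX9), and of 4 tested neuroendocrine genes 1 (DDC). None was called among 24 sterol and fatty acid synthesis genes (median -0.038), 20 interferon-stimulated genes (0.066), 9 immediate early genes (-0.032), 20 folding and unfolded protein response genes (0.037), 16 TGF-beta, BMP and Wnt genes (-0.034) and 8 NF-kappa B and cytokine genes (0.043). None of 19 amino acid supply genes was called either, but 17 were negative with a median of -0.15. Senexin B without R1881 was called higher for 7 of those 19 and with R1881 for 1, beside 2.02% and 1.61% of all genes tested. SLC7A11, the cystine transporter that feeds glutathione synthesis, had an interaction of -0.55 ± 0.086 (SE, edgeR FDR 6.78e-05), under the fold limit.

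A second experiment gives the same genes in libraries that the call did not use. It holds 16 libraries in 4 groups of 4, with vehicle, the CDK8 and CDK19 inhibitor SNX631 at 500 nM, R1881 at 1 nM, or both, for 72 h. Time, androgen dose and inhibitor all differ and cannot be told apart, so no difference between the experiments was tested. There, 1.19% of 16074 genes had a called interaction, 0.373% higher and 0.821% lower. Of the 92 genes, 90 had the same sign, 51 were called in the same direction and none in the opposite one. The share with the same sign over all genes tested is not given here. Of the androgen-raised genes, 17 of 27 with a lower and 9 of 18 with a higher interaction were called again. Of the androgen-lowered genes, 6 of 8 with a lower and 2 of 4 with a higher one were, and of those not called for R1881 alone, 8 of 18 and 9 of 17.

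After 72 h, the interaction of KLK3 was -1.53 ± 0.27 (SE, edgeR FDR 6.20e-05). TMEFF2 had -1.13 ± 0.077, SOX9 1.37 ± 0.20 and CNTNAP3 1.59 ± 0.24 (SE, all called). Of the 11 replication and division genes, 9 were called lower again, with values of the 11 from -0.78 to -0.50. CDC6 had -0.60 ± 0.064, and TOP2A at -0.57 ± 0.067 (SE) was just under the fold limit. CEMIP2 at -1.22 ± 0.058 and CAPN2 at 1.12 ± 0.061 (SE) were called again. MED12L had 0.21 ± 0.21, EIF1B -0.25 ± 0.074 and SPRY1 -0.12 ± 0.22 (SE), none of them called. The 2 genes with the opposite sign were CAPN5 at 0.20 ± 0.14 and NR2C2AP at 0.048 ± 0.10 (SE), and neither was called.

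**Figure D5:**
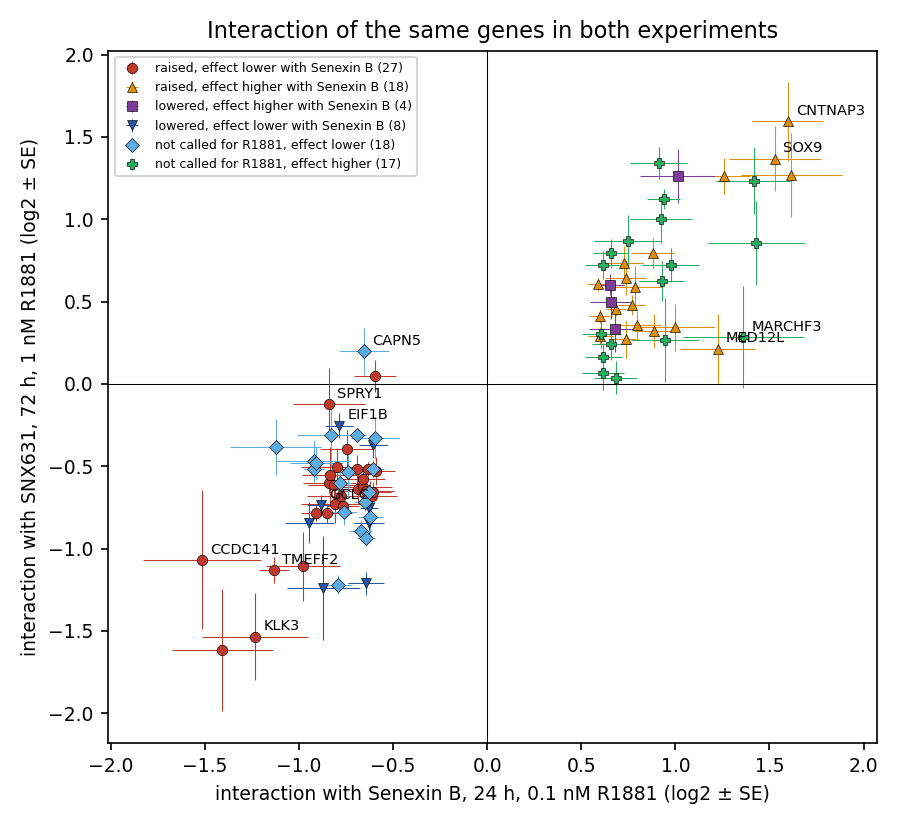
The interaction at 24 h with Senexin B and 0.1 nM R1881 (horizontal axis) is plotted against that at 72 h with SNX631 and 1 nM R1881 (vertical axis), both in log2 with SE bars, for the 92 genes by class. Points fall in the lower left and upper right except 2, CAPN5 among them at -0.65 and 0.20, and KLK3 lies at -1.23 and -1.53.

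The calls differed in how far they rested on single libraries. In fits that left out each of the 12 libraries in turn, 54 of the 92 genes were called every time. TMEFF2, ADRA2A, RRM2, CDC6, TOP2A, SOX9, PRRT2, CNTNAP3, MED12L, GCLC, LRATD1, DDC, THRB, CILK1, ALOXE3, TENM1 and CAPN2 were among these. MARCHF3 was called in 2 of 12 fits, SLC6A19 in 5 of 12, C18orf54 in 6 of 12, LINC00638 in 7 of 12, CALCRL-AS1 in 7 of 12, DLG2 in 10 of 12, CCDC141 in 9 of 12, ASRGL1 in 9 of 12, RILP in 9 of 12 and HMGN2P46 in 11 of 12. SPRY1 was called in 5 of 12, and of the neighbouring genes DTX4 in 1 of 12, ATG101 in 5 of 12, HMGXB3 in 8 of 12 and CA5B in 11 of 12. MPC2 was called in 5 of 12, NR2C2AP in 8 of 12 and CAPN5 in 11 of 12. Of the replication genes KIFC1 was called in 1 of 12 fits, ZNF367 in 3 of 12, DTL and CLSPN in 4 of 12 each, TICRR in 5 of 12, NCAPG in 6 of 12 and FAM111B in 10 of 12. The sign of the log2 interaction did not change in any of them.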

How the data were processed

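The authors deposited one table of expected counts per gene, not scaled to depth, in which reads that fall on several genes are shared out, so that 16.7% of the values above 0 at 24 h had a fraction. The submitters' processing notes list FastQC, cutadapt 2.8, STAR 2.7.2b, featureCounts and Subread 2.0.3, with the builds GRCh38.p13 and GRCm39. The annotation release and the use of strand are not given in the sources used here, and the kit is directional. The table holds 61815 human genes and 2 added entries, which sum to 0 and were left out.

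Counts were rounded and the 12 libraries of the 24 h experiment fitted with edgeR 4.0.16 under R 4.3.3 (TMM scaling and the quasi-likelihood test, low genes removed by filterByExpr at a count of 10 and a total of 15). The Benjamini-Hochberg adjustment covered the 15948 genes that passed. The SE is the log2 difference divided by the root of the F statistic, and intervals are at 95%. CPM are scaled by TMM. Of the 92 called genes, none had a group with at most 3 counts in every library. The 16 libraries at 72 h were fitted alone in the same way. Total counts per library limit low genes most, and intervals cover the spread between libraries.

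Members, lists and tests were chosen with earlier results of these data known. Named genes are KLK3, KLK2 and CHRNA2, up to 6 called genes with a symbol and at least 1 CPM per class by size of the interaction, called list members, and the genes nearest each limit. Others are said to have been named after their values were seen. Some of the genes under this rule are not reported here. Alternatives were DESeq2 1.42.0, limma-voom (limma 3.58.1), other scalings, filters and limits, thinning, a replicate block and leaving out each library. Replicate numbers were not used as pairs in the main fit. The correlation of deviations over 18 same-numbered pairs ran from -0.015 to 0.067. Its median was 0.014, beside -0.0091 for pairs with different numbers. Noise in single genes lowers such correlations, so they cannot settle whether the numbers pair the libraries. Replicate pairs differed by more than sampling noise. On simulated data of the 24 h interaction over 15788 genes, the test recovered 88% of genes changed by -1 and 96% of those changed by 1 on the log2 scale, with 3 false calls. The changed genes were drawn from those with higher mean counts and no smaller change was simulated. These shares therefore do not cover genes with few counts or smaller differences. Of 92 genes, 91 matched GENCODE 29 by identifier, 84 of them protein-coding, and 75 had a RefSeq promoter. Figures were drawn with matplotlib 3.10.9.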

Additional observations from a re-analysis of the deposited data

Results flagged for a closer look

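Each of these results is a group of genes in which the effect of R1881 differed between cells with vehicle and cells with Senexin B by the test of that difference. Among genes raised by R1881, the androgen effect differed for 27 genes with a lower value under Senexin B and for 18 with a higher one. Among genes lowered by R1881 it differed for 8 with a lower and 4 with a higher value. Among genes not called for R1881 alone it differed for 18 with a lower and 17 with a higher value. Groups of 3 libraries were too small to be tested for single libraries that stand apart.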

How the results depend on the processing

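The limits of the call moved the number of genes most. With an FDR under 0.05 and no fold limit 719 genes passed (373 higher, 346 lower), with an FDR under 0.01 and no fold limit 334 (172 and 162), with an FDR under 0.05 and a fold over 1.5 145 (63 and 82), and 7 (3 and 4) in edgeR's test against a fold of 1.5, where an FDR under 0.05 was used. In that order, androgen-raised genes with a lower effect numbered 103, 60, 46 and 2. Those with a higher effect numbered 102, 73 and 2, leaving out the third setting, which stayed within 1.5 times. Androgen-lowered genes with a lower effect numbered 49, 24 and 1 by the same settings, and those with a higher effect 51, 24, 14 and 0, where 4 were called. Genes not called for R1881 numbered 194, 78 and 1 with a lower and 220, 75, 28 and 1 with a higher effect. The androgen-lowered genes with a higher effect also numbered 8 with library totals only, 9 with no filter on low counts, 8 with all 28 libraries in the fit and 1 when sorted by the average androgen effect, by which those with a lower effect numbered 15. They ranged from 3 to 7 over fits without single libraries, with 7 as both the lowest and the highest of those that moved by over 1.5 times.

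The count of 92 was 92 with edgeR's relative log expression scaling, 94 with library totals only, 113 with no filter, 91 after thinning, 84 with limma-voom and 84 with DESeq2, where 3092 adjusted p-values were not given, and 74 to 103 when single libraries were left out. With a replicate block 101 genes were called, 90 of them shared with the 92, and 188 at 72 h. Whether the replicate numbers pair the libraries is not known. The causes were not tested.

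Of 818 values of named genes under 21 settings, 760 stayed on their side of the limits, 58 left the call and none changed sign on the log2 scale. MARCHF3 left it most often, in 13. As a difference of differences in CPM, CDC6 (7.17 CPM) and CHRNA2 (-47.4 CPM) changed sign. Genes near 1 CPM without R1881, KLK3 and CCDC141 among them, are limited by depth there.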
